A study of Mus musculus with 2 samples.

Results

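Chat, Slc18a3, Slc5a7, Ache, Bche, Isl1, Isl2, Phox2a and Mnx1 were described in total RNA of the embryonic mouse midbrain. They are genes of acetylcholine handling and of the transcription factors that mark motor neurons, above all those that move the eye. The 9 genes were taken by symbol, matched to Ensembl identifiers, from 43346 Ensembl genes measured in each library, and all 9 were found. The tissue was midbrain of embryonic day 16.5 from mice of strain B6NCrl, pooled over embryos of both sexes. It was sequenced as 2 libraries, biological replicates 2 and 1 of a single group with no treatment, mutation or control group. Replicate 2 was a pool of 37 embryos, the number of embryos behind replicate 1 is not given, and both carry the same donor identifier.

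Each library was made from 10 ng of RNA above a size of 200 nucleotides, with spike-in sequences added, per the labels. Expected counts, the estimated numbers of reads per gene, summed to 36576263 in replicate 2 and 31830355 in replicate 1. TPM is a level corrected for transcript length, with a fixed sum per library, and 1 read on a gene with an effective length of 1 kilobase was worth 0.0464 TPM in replicate 2 and 0.054 TPM in replicate 1. Of a list of 5 genes shared by neurons all were detected, here meaning at least 1 TPM in both libraries, led by the tubulin Tubb3 at 1780 ± 50.9 TPM and the stathmin Stmn2 at 1141 ± 35.8 TPM, and of 9 midbrain genes 6 were, with Gata3 and Otx2, factors of midbrain neurons, at 74.3 ± 4.07 and 60.4 ± 5.76 TPM. None of 10 Hox genes of hindbrain and spinal cord was detected (Hoxa2 and Hoxb2 were highest at 0.145 ± 0.0778 and 0.135 ± 0.0636 TPM), and their TPM summed to 0.27 in replicate 2 and 0.97 in replicate 1. Values with ± are means and SDs over the 2 libraries (n = 2). With a single group there is no test between conditions, so differences between the pools describe these 2 libraries and carry no p-value.

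Cholinergic neurons make acetylcholine from choline and acetyl-CoA with choline acetyltransferase, load it into vesicles, and take choline back up after the transmitter has been split by acetylcholinesterase in the synaptic cleft. In the midbrain the cholinergic motor neurons are those of the oculomotor and trochlear nuclei, which drive muscles that move the eye. Their formation depends on the homeodomain factor Phox2a, and they express the LIM homeodomain factor Isl1. Isl1 is also a factor of other neurons, among them neurons of hypothalamus and striatum, retinal ganglion cells and sensory neurons. Mnx1 marks spinal motor neurons and is not a factor of the oculomotor nucleus.

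The 9 genes did not share a common level. Ache and Isl1 held 89.9% of the summed TPM of the 9 genes in replicate 2 and 92.1% in replicate 1, and were the only ones of the 9 at 10 TPM or more in both libraries. The 3 genes particular to cholinergic neurons, Chat, Slc18a3 and Slc5a7, summed to 5.74 TPM in replicate 2 and 4.54 TPM in replicate 1. Phox2a was near 0 and Mnx1 had no read in either library. The name of an ocular motor neuron group thus rests on few reads of its defining factor, and the genes are called here by their roles.

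Of the 9 genes 5 were detected, Ache, Isl1, Slc18a3, Slc5a7 and Bche, beside 35.1% of all Ensembl genes and 62.1% of protein-coding genes. Isl2 was above 1 TPM in replicate 2 but not in replicate 1, though with the deposited posterior mean TPM it was at 2.04 in replicate 2 and 1.45 in replicate 1 and 6 genes were detected. In neither library did Chat, Phox2a or Mnx1 reach 1 TPM. The median TPM of the 9 genes was 1.4 in replicate 2 and 1.34 in replicate 1, against 5.21 and 5.25 TPM for the 21474 protein-coding genes. In bulk tissue, a low level in many cells and a high level in few cells cannot be told apart, nor can fewer cells of a type and less RNA per cell.

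**Figure D1:**
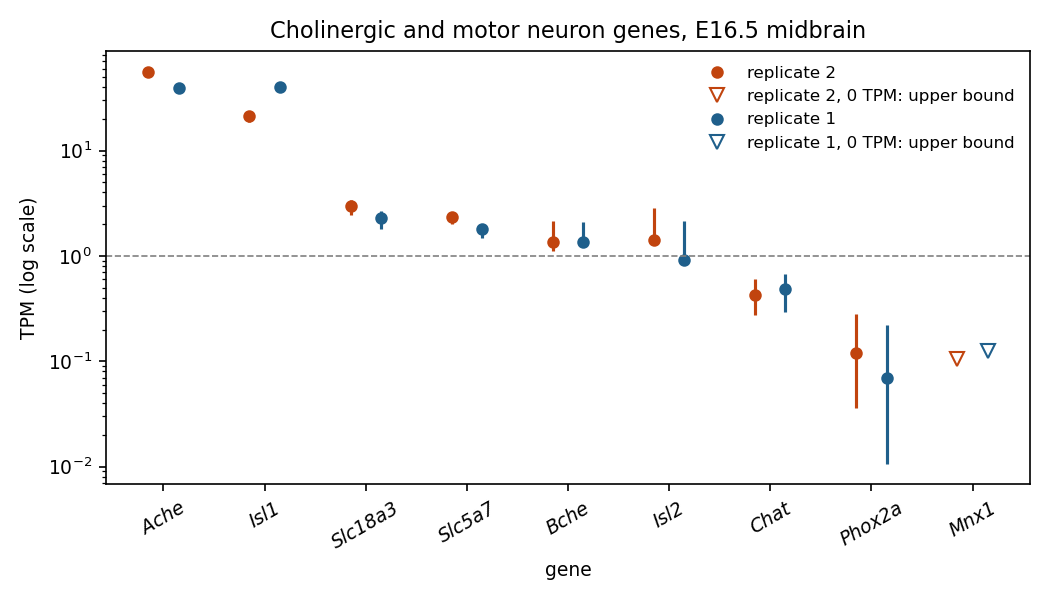
TPM of the 9 genes on a log axis, replicate 2 left of replicate 1 for each gene. Points are the deposited TPM, bars the deposited credibility bounds, open triangles the upper bound of Mnx1, listed at 0 TPM, and the dashed line 1 TPM. Ache and Isl1 stand between 21.3 and 55.0 TPM, and the other 7 genes are below 3 TPM in either library.

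The genes of acetylcholine synthesis and transport come first. Chat, choline acetyltransferase (chr14:32408203-32465989, minus strand, GRCm38), had 0.43 TPM in replicate 2 and 0.48 TPM in replicate 1, from 25 and 24 reads. The deposited credibility bounds ran from 0.273 to 0.602 TPM in replicate 2 and from 0.294 to 0.668 TPM in replicate 1, so the pools overlapped and both lay below 1 TPM. Of protein-coding genes, 32.1% in replicate 2 and 32.8% in replicate 1 had a lower TPM.

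Slc18a3, the vesicular acetylcholine transporter that fills synaptic vesicles (chr14:32462438-32464850, minus strand), had 2.99 TPM (149 reads) in replicate 2 and 2.27 TPM (97 reads) in replicate 1. Slc5a7, the high-affinity choline transporter of cholinergic terminals (chr17:54273590-54299034, minus strand), had 2.32 TPM (254 reads) in replicate 2 and 1.79 TPM (168 reads) in replicate 1. Within each library the credibility bounds of Slc18a3 and Slc5a7 overlapped, and neither overlapped those of Chat. The TPM of Slc18a3 was 6.95 times that of Chat in replicate 2, with a counting interval of 4.53 to 11.1, and 4.73 times in replicate 1, with an interval of 3 to 7.73. The ratio of Slc5a7 to Chat was 5.4 in replicate 2 (3.57 to 8.5) and 3.73 in replicate 1 (2.42 to 5.98). As log2 values the ratios were 2.52 ± 0.39 for Slc18a3 over Chat and 2.17 ± 0.38 for Slc5a7 over Chat (SD, n = 2), so each exceeded its spread between the libraries.

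Chat and Slc18a3 form what is known as the cholinergic gene locus, in which the transporter gene sits inside the synthesis gene. In GENCODE M21 Slc18a3 is a gene of 1 exon of 2413 bases on the same strand as Chat, and it lies in intron 1 of Chat-201, which is 4893 bases long. It is within an intron in 4 of the 8 Chat transcripts of that release. Slc18a3 starts 1107 bases after the start of Chat-201 and ends 1525 bases before the next exon of Chat-201. The deposited tables list 1 Chat transcript, so a read from unspliced Chat RNA over this stretch would be counted for Slc18a3, and the ratio of the genes is uncertain to that extent. The size of that contribution was not measured. Gm2990, an antisense gene that overlaps the start of Chat by 948 bases, had 0.55 TPM (12 reads) in replicate 2 and 0.54 TPM (10 reads) in replicate 1. Whether counting used the strand is not given in the sources used here, and the posterior SD of the Chat reads was 0 in both libraries, so no counted read was divided between Chat and Gm2990.

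**Figure D2:**
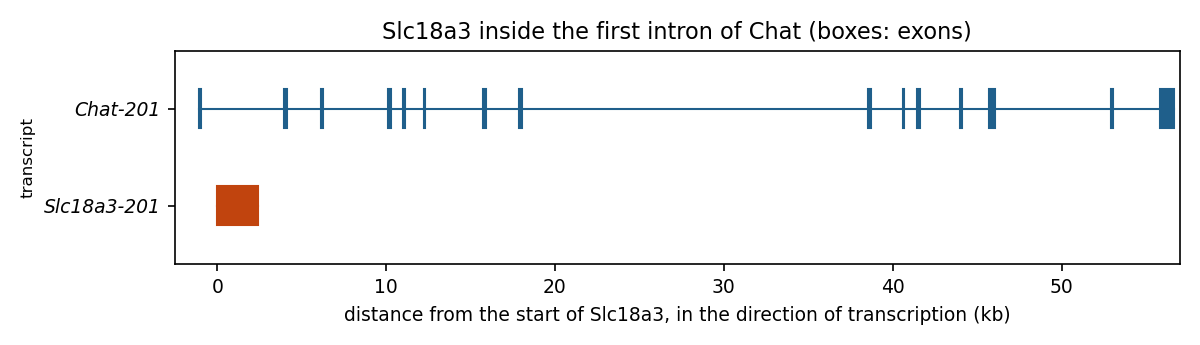
Exons (boxes) and extent (lines) of Chat-201 and Slc18a3 by distance from the start of Slc18a3 in kilobases, in the direction of transcription. The single exon of Slc18a3 lies between the first exons of Chat-201, 1107 bases after its start.

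Both genes have a start of their own, and the 250 bases before each RefSeq start (GRCm38.p6, minus strand) are shown because the genes share a locus but differed in level. Capitals mark CG pairs. The window of Chat is chr14:32465910-32466159 and that of Slc18a3 is chr14:32464851-32465100. The end of the Chat window lies within the first exon of Chat-201, which starts farther upstream in GENCODE M21. A window before a single start need not cover every promoter region of Chat.
Chat: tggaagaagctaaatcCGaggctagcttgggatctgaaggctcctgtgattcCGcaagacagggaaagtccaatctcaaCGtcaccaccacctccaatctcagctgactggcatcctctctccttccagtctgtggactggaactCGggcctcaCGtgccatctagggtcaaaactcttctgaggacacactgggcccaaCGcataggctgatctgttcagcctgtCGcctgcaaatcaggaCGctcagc
Slc18a3: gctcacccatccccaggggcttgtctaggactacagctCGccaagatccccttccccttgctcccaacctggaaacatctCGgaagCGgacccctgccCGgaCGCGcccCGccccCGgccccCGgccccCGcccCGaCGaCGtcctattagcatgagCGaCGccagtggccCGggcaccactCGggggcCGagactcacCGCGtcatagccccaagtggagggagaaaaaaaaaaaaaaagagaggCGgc
The Chat window holds 8 CG pairs, with 57% of 32817 RefSeq promoter windows of the same length holding fewer, and the Slc18a3 window holds 21, with 83.7% holding fewer. Over the 9 genes the number ran from 1 in Slc5a7 to 33 in Isl1, and the median of all windows was 6. The letters CCAAT, sought on both strands, were found in the windows of Chat, Bche, Isl1, Isl2, Phox2a and Mnx1, and in 33.8% of all windows. TATAAA was found in that of Slc5a7 alone of the 9, against 12.4% of all windows. TGACGTCA, the full cyclic AMP response element, was found in that of Isl2 alone of the 9, against 1.55% of all windows. These are matches of letters in the window and do not show a factor at the site.

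The cholinesterases were present at unequal levels. Ache, acetylcholinesterase, which ends cholinergic transmission (chr5:137287519-137294466, plus strand), had 55.0 TPM in replicate 2 and 39.3 TPM in replicate 1, from 2490 and 1522 reads. Of protein-coding genes, 85.1% in replicate 2 and 79.6% in replicate 1 had a lower TPM. Its credibility bounds did not overlap between the pools, at 52.5 to 57.5 TPM in replicate 2 and 37.4 to 42.5 TPM in replicate 1.

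Bche, butyrylcholinesterase, a related esterase with broader substrates (chr3:73635808-73708415, minus strand), had 1.36 TPM (130 reads) in replicate 2 and 1.34 TPM (144 reads) in replicate 1. Its TPM was the same to within 0.0141 (SD, n = 2) although its reads per library were not, because the transcript mixture gave the gene a mean length of 4547 bases in replicate 2 and 5906 bases in replicate 1. The TPM of Ache was 40.4 times that of Bche in replicate 2 (counting interval 33.9 to 48.6) and 29.4 times in replicate 1 (24.7 to 35.1), a log2 ratio of 5.11 ± 0.33. Ache also stood far above Chat, by 128 times in replicate 2 (86.4 to 198) and 81.9 times in replicate 1 (54.9 to 128).

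The enzymes share a catalytic serine, and the stretch around its codon is shown because the abundant and the scarce enzyme both depend on it. Capitals mark the serine codon. The stretch of Ache-201 is chr5:137290718-137290750 on the plus strand and that of Bche-201 is chr3:73701396-73701428 on the minus strand, both in exon 2, from GENCODE M21 on GRCm38.
Ache-201: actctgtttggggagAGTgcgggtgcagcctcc
Bche-201: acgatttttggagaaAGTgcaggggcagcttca
Of these 33 bases 24 are identical, or 72.7%, against 54.3% of 1853 aligned columns over the whole coding sequences. Of the 31-base words of the Ache transcripts 1.79% also occur in transcripts of other genes, and of those of Bche 0%. All 9 genes had a posterior SD of 0 for their read number in both libraries, so no counted read was divided between them and another gene.

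Acetylcholinesterase RNA is spliced in known ways at its last exons, which decide how the enzyme is anchored. Of 8 listed Ache transcripts, Ache-201 held 68.6% of the TPM of the gene in replicate 2 and 61.2% in replicate 1, and Ache-202 held 29.6% and 36.1%. These transcripts have the same coding sequence of 1842 bases in 5 exons, and their exon 2 starts differ by 3 bases. Together they held 97.8% ± 0.61 of the TPM of Ache. Ache-208, which retains an intron, held 1.44% in replicate 2 and 1.67% in replicate 1. No listed transcript reads into the last intron or starts an exon there, so alternative ends of the enzyme were not measured. Colq and Prima1, which anchor the enzyme at the muscle basal lamina and in neuronal membranes, were both below 1 TPM, at 0.035 ± 0.0071 and 0.435 ± 0.0495 TPM.

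Bche-201, the transcript with the full coding sequence, held 65.4% of the TPM of Bche in replicate 2 and 92.7% in replicate 1. The remainder was Bche-202, which retains an intron, at 18.3% in replicate 2 and 7.26% in replicate 1, and the short Bche-203, at 16.4% in replicate 2 and 0% in replicate 1. These shares rest on few reads, since Bche-201 took 89.8% of the reads of the gene in replicate 2 and 97.6% in replicate 1.

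**Figure D3:**
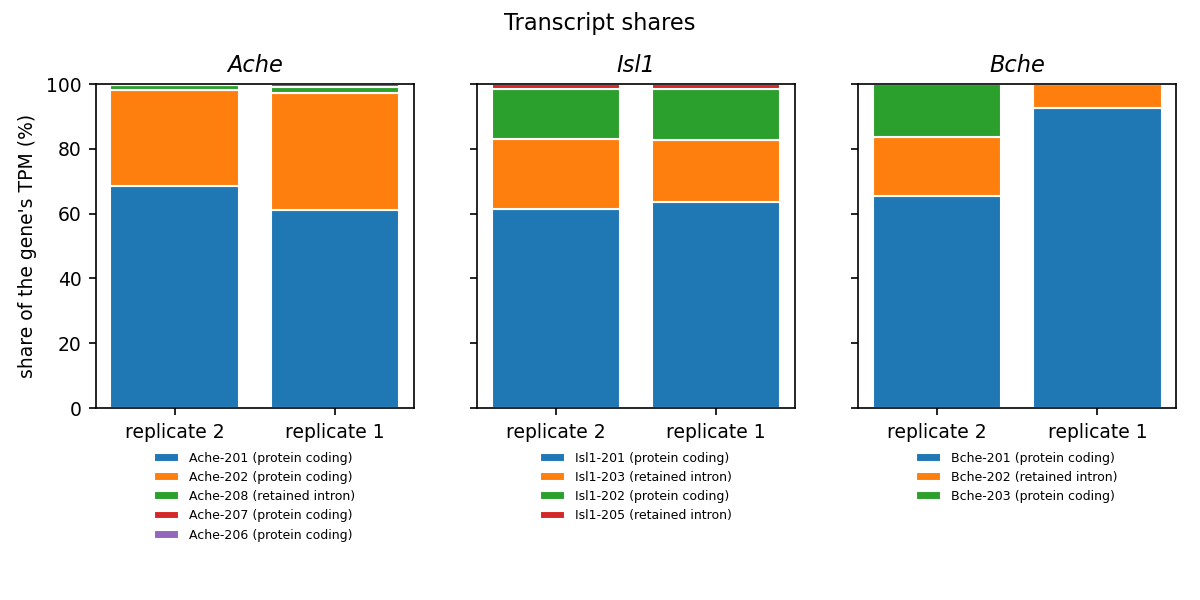
Share of each gene's TPM (percent) held by each listed transcript of Ache, Isl1 and Bche, replicate 2 left of replicate 1. Ache-201 is the larger part of Ache in both libraries, the shares of Isl1 differ little between the libraries, and Bche-201 holds 65.4% in replicate 2 and 92.7% in replicate 1.

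Among the transcription factors, Isl1 alone was above 10 TPM. Isl1, a LIM homeodomain factor of motor neurons and several other neuron classes (chr13:116298281-116309689, minus strand), had 21.3 TPM (830 reads) in replicate 2 and 40.3 TPM (1375 reads) in replicate 1. The credibility bounds were 18.7 to 23.7 TPM in replicate 2 and 35.7 to 43.5 TPM in replicate 1 and did not overlap. Isl1 was second to Ache in replicate 2, and in replicate 1 the bounds of Isl1 and Ache overlapped, so their order there is not resolved.

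Isl2, the paralog used by subsets of motor neurons (chr9:55538672-55546180, plus strand), had 1.4 TPM (53 reads) in replicate 2 and 0.91 TPM (29 reads) in replicate 1. Its bounds of 1.33 to 2.84 TPM in replicate 2 and 0.855 to 2.13 TPM in replicate 1 overlapped each other and those of Bche in each library. The TPM of Isl1 was 15.2 times that of Isl2 in replicate 2 (counting interval 11.5 to 20.5) and 44.3 times in replicate 1 (30.7 to 66.3), and these intervals did not overlap. The coding sequences of the paralogs are identical at 69.3% of 1083 aligned columns, 0% of the 31-base words of Isl2 and 0.0253% of those of Isl1 occur in another gene, and Gm17226, antisense to Isl2, had no reads.

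Phox2a, on which the oculomotor and trochlear nuclei depend (chr7:101818313-101822726, plus strand), had 0.12 TPM from 4 reads in replicate 2 and 0.07 TPM from 2 reads in replicate 1. The ratio of scaled reads between the pools was 1.76 with a counting interval of 0.253 to 19.5, so no difference could be resolved at this depth. The last 95 bases of Phox2a overlap Inppl1 on the opposite strand, which had 3.51 TPM (348 reads) in replicate 2 and 3.09 TPM (268 reads) in replicate 1, and 3.25% of the 31-base words of Phox2a are shared with it. The few reads counted for Phox2a had no estimated uncertainty of assignment, with a posterior SD of 0 in both libraries. The TPM of Isl1 was 178 times that of Phox2a in replicate 2 (69.1 to 654) and 575 times in replicate 1 (159 to 4755).

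Mnx1 (chr5:29473034-29478470, minus strand) had 0 reads in both libraries. A count of 0 allows up to 3 reads, which on this gene is 0.0685 TPM in replicate 2 and 0.0798 TPM in replicate 1, and the deposited upper credibility bounds were 0.106 and 0.124 TPM. The order of the 9 levels, in TPM, was Ache, Isl1, Slc18a3, Slc5a7, Isl2, Bche, Chat, Phox2a and Mnx1 in replicate 2. In replicate 1 the neighbours Isl1 and Ache, and Bche and Isl2, stood the other way round in TPM, and with posterior mean TPM Ache stood before Isl1 there too. In each library the bounds of Slc5a7 overlapped those of Slc18a3, Isl2 and Bche, so the place of Slc5a7 among these is not resolved. Those of Slc18a3 and Bche did not overlap in replicate 2 but did in replicate 1. The bounds of Chat and Phox2a overlapped in replicate 2 but not in replicate 1.

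Isl1 RNA had coding forms that differ by a piece of exon 5. The longer form, with a coding sequence of 1047 bases, held 61.4% of the TPM of the gene in replicate 2 and 63.5% in replicate 1, and the shorter form, with 978 coding bases, held 15.4% and 15.7%. In TPM the longer form was 3.99 times the shorter in replicate 2 and 4.04 times in replicate 1, a mean of 4.02 ± 0.0334, while Isl1 itself differed by 1.88-fold between the pools. A transcript that retains an intron held 21.7% in replicate 2 and 19.3% in replicate 1. The models of the shorter form and of the intron-retaining transcript are short, at 1198 and 676 bases against 2516 bases for the longer form, and in reads rather than TPM the longer form held 82.2% in replicate 2 and 83.2% in replicate 1.

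The stretch of spliced RNA that separates the forms is shown because it is the coding difference between these forms of Isl1. Both lines span chr13:116301695-116303060 on the minus strand (GENCODE M21, GRCm38), from the end of exon 4 into exon 5 with the intron removed. In the longer form capitals mark the 69 bases, chr13:116301710-116301778, that the shorter form lacks, and in the shorter form capitals mark the bases on either side of its junction.
Longer form of Isl1: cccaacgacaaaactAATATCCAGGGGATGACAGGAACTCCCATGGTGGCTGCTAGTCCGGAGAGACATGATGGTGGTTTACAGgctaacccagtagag
Shorter form of Isl1: cccaacgacaaaacTGctaacccagtagag

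The pools were compared by log2 of scaled expected counts, replicate 2 over replicate 1, and the 7 genes of the group with a mean of at least 10 reads entered. None of the 7 passed 2-fold, beside 2.8% of the 17773 genes compared, and 2 of the 7, Isl1 and Isl2, passed 1.5-fold, beside 8.94%. The counting interval excluded equal levels for 5 of 7, beside 37.5% of all genes compared. It lay above equal for 4 of 7, beside 19.9% of all genes, and below equal for 1 of 7, beside 17.6%. The median log2 ratio was 0.41 over the 7 genes and 0.01 over all genes compared.

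Isl1 was the farthest from equal, at a log2 ratio of -0.91 with a counting interval of -1.04 to -0.79, or 1.88-fold higher in replicate 1. Of 5354 genes within 2-fold of its read number, 0.28% differed more. Ache was higher in replicate 2, at 0.53 (0.43 to 0.62), and of 5194 genes of like read number 1.08% differed more. Isl1 and Ache thus lay on opposite sides, both beyond nearly all genes of their depth.

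Slc18a3 and Slc5a7 were both higher in replicate 2, at 0.43 (0.06 to 0.82) and 0.41 (0.13 to 0.70), but 20.1% and 15.2% of genes of like read number differed more. Isl2 was at 0.68 (0.01 to 1.39), on the other side of equal from its paralog Isl1, with 16.8% of like genes differing more. The intervals of Bche, at -0.33 (-0.68 to 0.02), and Chat, at -0.13 (-0.99 to 0.75), held equal levels, and from deposited TPM the ratio of Bche turned to 0.02.

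**Figure D4:**
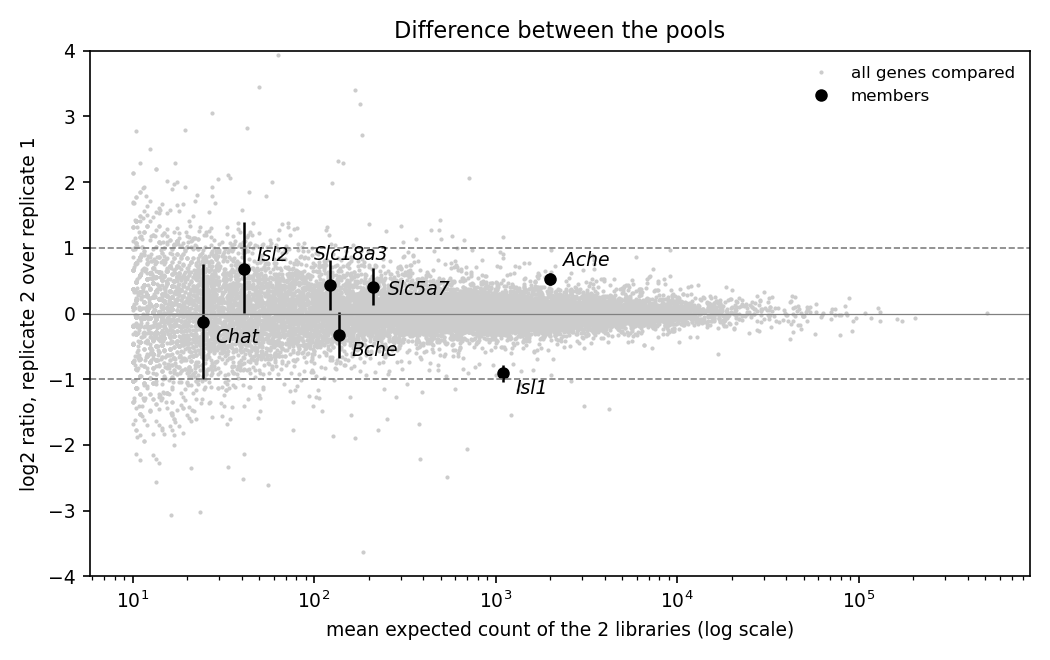
Log2 ratio of scaled expected counts, replicate 2 over replicate 1, against the mean expected count of the libraries on a log axis, for all genes compared (grey) and the 7 genes of the group with enough reads (black, bars are counting intervals). Dashed lines mark 2-fold. Isl1 at -0.91 and Ache at 0.53 lie at the edges of the cloud at their depth, and the other 5 lie within it.

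Other genes of the pathway were read from lists given in full under the processing. List counts here and below stand beside 62.1% of protein-coding genes detected and a median log2 ratio of 0.01 over all genes compared. Of 12 genes of choline uptake and acetyl-CoA supply 10 were detected, none of the 11 compared passed 2-fold, and their median log2 ratio was -0.05. The highest were Acly, which makes cytosolic acetyl-CoA, at 188 ± 8.29 TPM, and Slc25a1, the mitochondrial citrate carrier, at 143 ± 8.12 TPM. Both serve lipid synthesis in every cell and are not particular to cholinergic neurons. Of the 5 muscarinic receptors 3 were detected, with Chrm2 at 7.95 ± 0.742 TPM and Chrm3 at 3.69 ± 0.233 TPM, and none of the 4 compared passed 2-fold.

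Of 11 genes of cranial motor neuron specification 7 were detected, beside 62.1% of protein-coding genes. Foxp1, a factor also of many other neurons, led at 65.8 ± 0.332 TPM, and Lhx1, a LIM homeodomain factor, followed at 23.4 ± 2.85 TPM. None of the 9 of these compared was higher by 2-fold in replicate 2, beside 1.47% of all genes, and none was lower by 2-fold. Of these 9 genes 7 were higher in replicate 2, with a median log2 ratio of 0.07, beside 0.01 over all genes compared. The counting interval lay above equal for 5 of the 9, beside 19.9% of all genes, and below equal for 2, beside 17.6%. Nkx6-1, Nkx6-2 and Lhx4, named after their values were seen, were just under 2-fold at log2 ratios of 0.96, 0.90 and 0.95. The 2 with an interval below equal were Onecut2 at -0.38 (-0.52 to -0.25) and Lhx1 at -0.30 (-0.40 to -0.20).

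Of 10 genes of motor neuron differentiation 9 were detected, beside 62.1% of protein-coding genes. Of the 9 compared 8 were higher in replicate 2 and none was past 2-fold. Their median log2 ratio was 0.37, beside 0.01 over all genes compared. The counting interval lay above equal for 7 of the 9, beside 19.9% of all genes compared. Agrn, which organises the neuromuscular synapse, was at 107 ± 3.08 TPM, and Gfra1, a receptor for GDNF, at 33.8 ± 5.09 TPM. Lists of other genes also leaned to replicate 2. The counting interval lay above equal for 6 of 9 midbrain genes, 3 of 5 genes shared by neurons and 6 of 8 glial genes. It lay below equal for 1 gene in each of these lists, and their median log2 ratios were 0.19, 0.10 and 0.62. The lean was thus not particular to motor neuron genes. Isl1 was lower in replicate 2, while most of the motor neuron differentiation genes compared were higher there. The source of either difference was not tested.

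A further list held 8 genes whose human counterparts underlie congenital disorders of eye or facial movement. Of these 6 were detected, led by the tubulins Tubb3, given above, and Tubb2b at 1267 ± 46 TPM, which are used by all growing neurons. Robo3, which steers crossing axons, had 3.56 TPM (296 reads) in replicate 2 and 14.9 TPM (1090 reads) in replicate 1. Its log2 ratio of -2.06 (-2.25 to -1.88) was the only one of the 7 compared past 2-fold. Hoxb1 had no reads in either library.

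Lists of markers of other cells that express Isl1 or acetylcholine genes were read beside these values. In a list of prethalamus and hypothalamus 9 of 11 genes were detected, and the TPM of the 11 summed to 52.8 in replicate 2 and 97 in replicate 1. All 11 were lower in replicate 2, with a median log2 ratio of -0.88, beside -0.91 for Isl1. The counting interval lay below equal for 9 of the 11, beside 17.6% of all genes compared. Past 2-fold lower were Dlx2 at -1.27, Dlx5 at -1.08, Dlx6 at -1.30, Six6 at -1.26 and Hmx3 at -1.93, 5 of 11, against 1.33% of all genes compared. Dlx1, a factor of forebrain GABA neurons, had the highest level of the list at 36.6 ± 14.5 TPM. No gene of this list was at 0 reads in either library. Of the other lists with cells that express Isl1, that of sensory ganglia had a median of -0.19 and that of retina 0.14. Of 7 sensory ganglion genes the counting interval lay below equal for 2 and above for 1. Of 6 retinal genes it lay above equal for 2 and below for none. Striatum and basal forebrain follow below. The part of any of these cells in the Isl1 difference was not tested.

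The list of striatum and basal forebrain, whose genes are not all particular to cholinergic neurons, had 10 of 11 genes detected. The 11 summed to 77.4 TPM in replicate 2 and 79.2 TPM in replicate 1, with a median log2 ratio of -0.06 and none past 2-fold. The counting interval lay below equal for 2 of the 11, beside 17.6% of all genes, and above equal for 1, beside 19.9%. The highest of this list were Ebf1 at 44.4 ± 0.573 TPM and Ngfr at 8.84 ± 0.424 TPM. That of the medial habenula, a cholinergic nucleus next to the midbrain, had 7 of 8 genes detected, summed to 371 TPM in replicate 2 and 375 TPM in replicate 1, with a median of -0.14. Lmo3 and Tac1 led it at 147 ± 13.9 and 111 ± 5.53 TPM. The list also holds Pou4f1, a factor also of midbrain neurons, at 58.1 ± 7.95 TPM, so its sum does not measure habenular RNA alone. Gpr151, a receptor of habenular neurons, was past 2-fold lower at -1.55 (-1.92 to -1.19). The part of either source in the levels of Chat, Slc18a3 and Slc5a7 was not tested.

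Beside Ache, which red cells and their precursors also make, 7 red cell genes summed to 11290 TPM in replicate 2 and 12792 TPM in replicate 1, with a median log2 ratio of -0.17, the opposite side from Ache at 0.53. The highest were Hba-a2 at 5233 ± 560 TPM and Hbb-bs at 3111 ± 148 TPM, and copies of globin genes share reads, so their single values are uncertain. The 8 glial genes summed to 400 TPM in replicate 2 and 263 TPM in replicate 1, with a median of 0.62, and Aqp4 at 1.42 and Gfap at 2.11, both of astrocytes, passed 2-fold higher. Sparcl1 and Aldoc were the highest of them at 149 ± 39.0 and 101 ± 39.2 TPM. The 5 genes shared by neurons had a median of 0.10, with the counting interval above equal for 3 and below for 1. They ran from Tubb3 at -0.02 to Snap25 at 0.52 (0.47 to 0.57). The part of any of these cell types in the Ache difference was not tested.

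**Figure D5:**
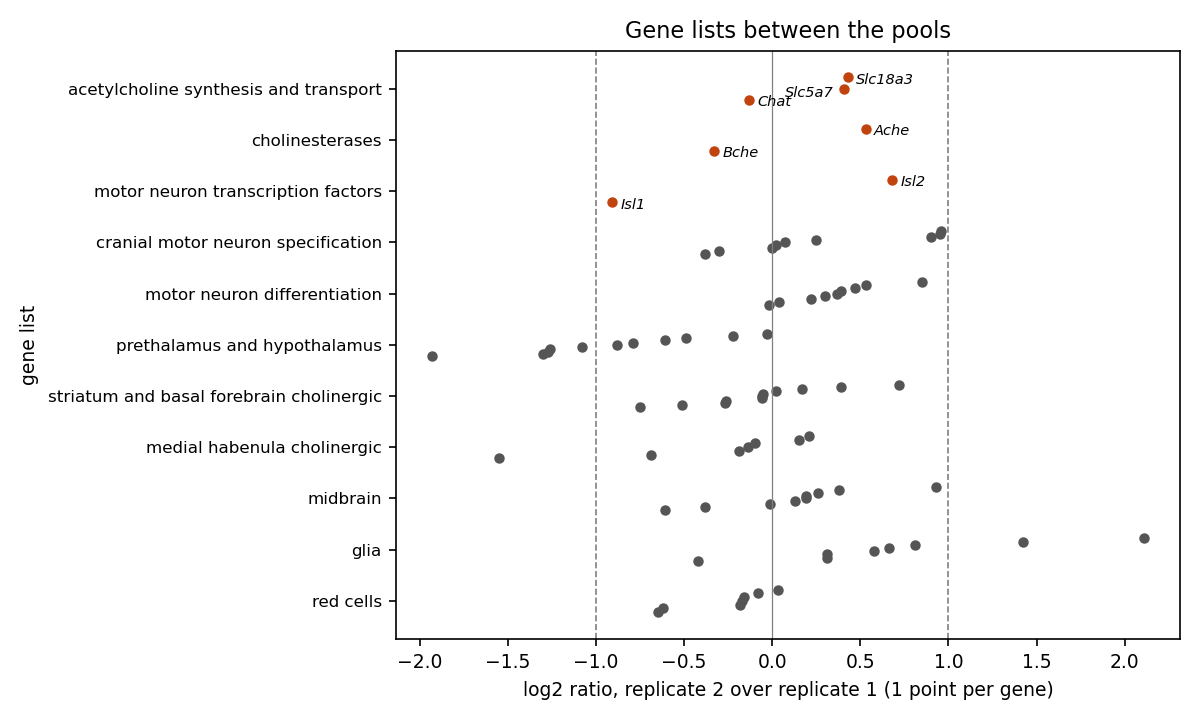
Log2 ratio, replicate 2 over replicate 1, of each gene with a mean of at least 10 reads, by list, with the acetylcholine and motor neuron genes in the top 3 lines (orange) and other lists below (grey). Dashed lines mark 2-fold. All 11 prethalamus and hypothalamus genes lie left of equal, 9 of them with a counting interval (not drawn) below equal, as does Isl1 at -0.91. No gene plotted in the motor neuron lists passes 2-fold.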

How the data were processed

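Each library had a gene table and a transcript table. Per the deposited readme, alignment was to mm10 and to its transcriptome, with GENCODE M4 as the annotation of the quantification. For the quantifier, its version and its use of strand, the answer is not given in the sources used here. Per the file headers, the deposited expected counts are estimated reads per feature, not normalized. TPM as deposited, per the file headers, is corrected for effective length and scaled to a fixed total, and deposited FPKM is scaled by length and reads. The deposited transcript share gives, per the file headers, what percent of its gene's TPM a transcript holds. The deposited credibility bounds of TPM have no stated level, and posterior means are further deposited columns.

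Symbols, types and coordinates came from GENCODE M21 (GRCm38, the assembly of mm10), joined by identifier. Promoter sequences are RefSeq's, found for all 9 genes. Drgx and Ahsp, of the sensory ganglion and red cell lists, were not analysed here. The listed transcripts of Chat and Slc5a7 differ in length between the annotation releases.

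Pool ratios are expected counts plus 0.5, scaled by TMM factors of edgeR 4.0.16 on rounded counts over all Ensembl genes, with a mean of at least 10. Intervals are exact (Clopper-Pearson, 95%), and the floor is 3 counts. Both are for counting error alone, because without molecular identifiers a read is not an independent molecule. A gene was called past a threshold at 2-fold. Only the pool ratio and its interval were tested on simulated data, which held counting error alone and no further spread between pools. Genes given a known change there had more reads than Chat or Isl2. Ratios between genes are of TPM within a library. Alternatives were posterior means, other thresholds, additions and minimum counts, other scales (DESeq2 1.42.0 size factors, total counts, TPM) and single libraries. Software was R 4.3.3 and Python 3.11.15 (biopython 1.88, matplotlib 3.10.9, pandas 2.3.3, numpy 2.4.6, scipy 1.17.1).

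The 9 genes and all lists were chosen with earlier results of these data known. Named were all 9 genes, the genes that overlap them, and of each other list the members past 2-fold and the 2 of highest mean TPM. Nkx6-1, Nkx6-2, Lhx4, Onecut2, Snap25, Crx, Rax and Hoxb1 were named after their values were seen. The lists were choline supply (Slc44a1 to Slc44a5, Chka, Chkb, Acly, Slc25a1, Pcyt1a, Pcyt1b, Pemt), cholinesterase anchors (Colq, Prima1), muscarinic receptors (Chrm1 to Chrm5), cranial motor neuron specification (Nkx6-1, Nkx6-2, Nkx2-2, Olig2, Tbx20, Lhx3, Lhx4, Lhx1, Onecut1, Onecut2, Foxp1), motor neuron differentiation (Prph, Calca, Calcb, Slc10a4, Ret, Gfra1, Gfra2, Agrn, Chodl, Nrg1) and human eye or facial movement disorders (Kif21a, Tubb3, Tubb2b, Chn1, Sall4, Hoxb1, Robo3, Ecel1). Marker lists covered prethalamus and hypothalamus (Dlx1, Dlx2, Dlx5, Dlx6, Otp, Sim1, Nkx2-1, Pomc, Ghrh, Six6, Hmx3), striatum and basal forebrain, medial habenula, sensory ganglia, pituitary, hindbrain and spinal cord, retina, red cells, glia, skeletal muscle, all neurons and midbrain. Some genes of these lists as first written are not reported here and enter no list count.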

Additional observations from a re-analysis of the deposited data

How the results depend on the processing

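Of 151 recomputed values 139 stayed within the spread of the libraries, their counting interval or, for counts, 1.5 times, and 12 moved. With n = 2 the value of a single library always lies within the SD around the mean. Leaving out a library therefore could not move a level, ratio or share, and those values among the 139 say nothing on stability. The pool difference of Bche, not past 2-fold, turned from -0.33 to 0.02 with deposited TPM, in which its estimated length also differed between the libraries, and no other pool difference of the 9 genes changed sign. With posterior mean TPM 6 of the 9 genes were detected, Isl2 among them. With posterior mean TPM, Bche was at 1.62, Isl2 at 1.75, Mnx1 at 0.045 and the median of the 9 genes at 1.84. At 2 TPM in place of 1, 3 of the 9 genes were detected. Without correction for length, in expected counts, the log2 ratios became 3.83 for Ache over Bche, 3.08 for Slc5a7 over Chat and 5.45 for Isl1 over Chat. Of all genes 4758 passed 2-fold with no minimum count and 93 with a mean of at least 50, against 497, and 1589 passed 1.5-fold, as did 2 of the 9 genes, Isl1 and Isl2. No paired analysis was possible because both libraries belong to a single group. Depth limits Chat, Phox2a, Mnx1 and Isl2, which had at most 53 reads in a library.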

Other observations

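Lists of neighbouring and other tissues were read as well. Of 7 pituitary genes none was detected, Pitx1 and Gh were highest at 1.02 ± 0.24 and 0.515 ± 0.728 TPM, and 2 genes had no read in either library. Of 8 sensory ganglion genes 4 were detected, with Pou4f1, a factor also of midbrain neurons, at 58.1 ± 7.95 TPM and Avil at 1.88 ± 0.658 TPM, and none of the 7 compared passed 2-fold. Of 6 retinal genes 4 were detected, led by Pou4f2 at 16.8 ± 5.44 TPM and Rlbp1 at 12.7 ± 1.76 TPM, and none of the 6 compared passed 2-fold. Crx and Rax, the 2 not detected, were at 0.215 ± 0.0212 and 0.485 ± 0.148 TPM. Whether retina contributed RNA was not tested. Of 6 skeletal muscle genes 1 was detected, Acta1 at 8.18 ± 0.785 TPM, with Chrna1, of the acetylcholine receptor of the muscle endplate, next at 0.16 ± 0.0424 TPM.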
